A study of Mus musculus with 6 samples.

Results

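In all, 10 genes of goblet cell secretion were followed in the colonic mucosa of mice without Tlr2, the toll-like receptor that senses lipoproteins of bacteria. They were chosen by function, with earlier results of these data known, and are Retnlb, Muc2, Tff3, Agr2, Fcgbp, Zg16, Clca1, Spink4, Spdef and Atoh1. Of these 10 genes, 9 had a matched probe and were tested among 14702 named genes, while no probe was matched to Muc2, the gel-forming mucin of the colon, which is not analysed here. The 9 genes were read by 10 probes, as Fcgbp had 2. The Tlr2 knockout (Tlr2-/-) group held 4 samples of C57BL/6 mice at postnatal day 90, and the wild-type (WT) group held 4 samples of the same strain and age. Mucosa was scraped from the colon with a microscope slide, and transcripts were measured on 4 two-colour arrays that each held 1 knockout and 1 wild-type sample. The pairs are numbered 1, 2, 4 and 5 after the knockout sample. The knockout sample carried the dye Cy3 in pairs 1 and 2 and Cy5 in pairs 4 and 5. No label says outright that each sample is a separate animal, so a p-value here measures the spread between these samples. The labels do not give the knockout allele, the position along the colon or the sex of the mice.

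Goblet cells are the mucus-secreting cells of the colonic crypt and build the mucus layer that separates bacteria from the epithelium. Atoh1 commits a crypt progenitor to the secretory lineage and Spdef drives goblet cell maturation, while Agr2 is a disulphide isomerase needed in the endoplasmic reticulum (ER) to make mucin. Tff3, Fcgbp, Zg16 and Clca1 are secreted with the mucin, and Spink4 is a goblet cell peptide of the Kazal protease inhibitor family. Retnlb encodes resistin-like beta, which goblet cells release into the lumen, where it acts on bacteria. In mice it is known to be induced by bacterial colonisation and by type 2 cytokines. In whole mucosa, fewer cells of a type and less RNA per cell cannot be told apart.

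As a check of the labels, Tlr2 gave log2 ratios (knockout over wild type, as throughout) of -4.42, -5.31, -5.50 and -4.20 in pairs 1, 2, 4 and 5, so its signal was lower in the channel labelled knockout on each array. Between 67.7% and 71.9% of the 43379 spots that were not controls were well above background in the knockout channel, and between 63.3% and 76.5% in the wild-type channel. All 9 genes were well above background in both channels of all 4 arrays. Pair 1 stood apart from the others. Over all genes, its ratios correlated negatively with those of pairs 2, 4 and 5 (Pearson r of -0.21, -0.42 and -0.10), while the other pairs correlated with each other at 0.42 to 0.57. These are descriptions across genes, which are not independent replicates. Values without pair 1 are given where it moved a result.

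Retnlb was higher in the knockout sample than in its wild-type partner on all 4 arrays. Only 4 of the 9 genes, Retnlb, Spink4, Spdef and Atoh1, had no saturated spot and so a measured ratio on each array, and among these 4 it was the only one higher on all arrays. Its normalised log2 intensity in knockout samples was 15.04, 15.09, 14.07 and 15.35 in pairs 1, 2, 4 and 5. In their wild-type partners it was 12.28, 14.25, 11.78 and 12.65. The wild-type sample of pair 2 stood above the other wild-type samples and just above the knockout sample of pair 4, so the levels of the groups overlap through that 1 sample. The spot signals before any correction had the same order within each pair. They were 20308.5, 32138, 21470 and 52312 in knockout samples, against 8025.5, 24265, 2255 and 5172 in wild-type samples, and none was saturated.

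**Figure D1:**
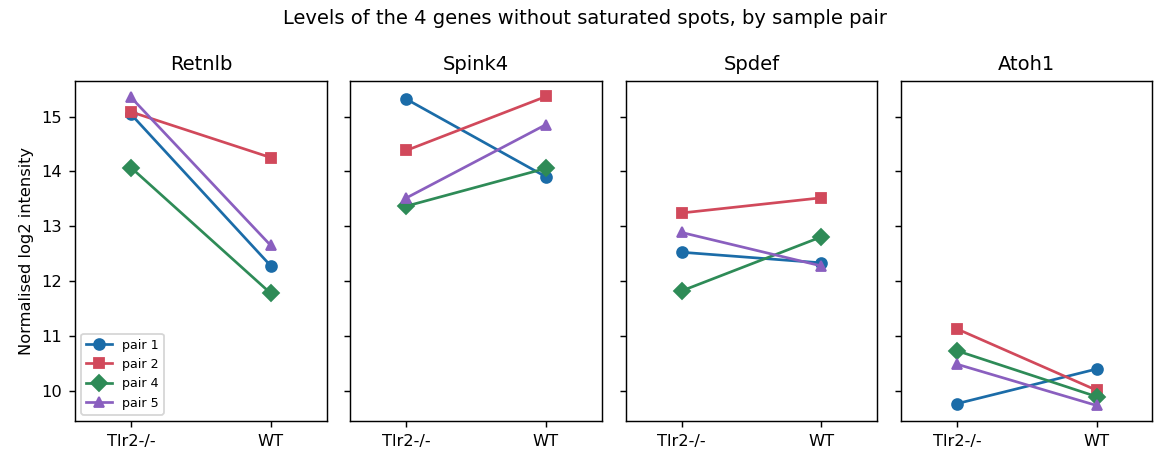
Normalised log2 intensity (vertical axis) of the 4 genes without a saturated spot in Tlr2-/- and WT samples, with a line joining the samples that shared an array. Lines for Retnlb slope down towards WT in all 4 pairs, while pair 1 slopes against the other pairs in Spink4 and Atoh1.

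The log2 ratios of Retnlb were 2.76, 0.83, 2.29 and 2.70, with a mean of 2.15 ± 0.90 (SD, n = 4 arrays). This is 4.42-fold higher in knockout than in wild-type mucosa. The 95% interval of 2.24-fold to 8.72-fold comes from the limma fit named below, with its spread shared over all genes, and not from this SD. By mean ratio it was number 2 of 14702 genes from the top, and within single arrays it was number 7, 340, 3 and 5. The mean ratio was 1.80 over the arrays with knockout in Cy3 and 2.49 over those with knockout in Cy5, so the direction was the same in both dye orientations. limma, a linear model with a spread shared over all genes, gave an unadjusted p of 0.00357 and an adjusted p of 0.593. The difference therefore did not pass the threshold of 0.05 after Benjamini-Hochberg adjustment over all genes. An exact two-sided sign-flip permutation test over the 4 arrays gave p = 0.125, which is the smallest p that 4 arrays allow.

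No gene passed limma in either direction (0% higher and 0% lower), although 1194 genes had an unadjusted p under 0.05, where 735.1 are expected when no gene differs. The smallest adjusted p of any gene was 0.0577. Tlr2 itself, with a mean log2 ratio of -4.86, had an adjusted p of 0.314 in limma. A gene that did not pass limma is therefore not shown to be unchanged. The submitters' own rule for a hit asks for a change over 1.6-fold on at least 2 arrays with no array on the other side of 1. The rule can be read only for genes without a saturated spot, of which 14397 were tested. By that rule 1 of the 4 goblet cell genes with measured ratios was higher in knockout mucosa, against 0.778% of those 14397 genes, and that gene was Retnlb. None of the 4 was lower, against 0.702%. With each array centred on its median in place of loess, the split over all genes, saturated ones included, moved to 45 higher and 293 lower (13.3% higher). With loess it was 112 higher and 105 lower (51.6% higher). Retnlb passed the rule under both. Without pair 1, Atoh1 passed as well on the higher side and Spink4 on the lower side, where the shares of all genes without saturation were 2.73% higher and 3.38% lower. On all 4 arrays 1 of the 4 genes was higher and 0 lower, against 7.24% higher and 8.53% lower of the genes without saturation. On all 3 arrays other than pair 1, 2 of the 4 were higher and 1 lower, against 24.1% and 24.8%. In the authors' deposited table of increased transcripts, Retnlb was the only one of the 10 genes, with ratios of 5.78, 1.76, 5.43 and 6.44 and an average of 4.85. The authors' deposited table of decreased transcripts held none of the 10.

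**Figure D2:**
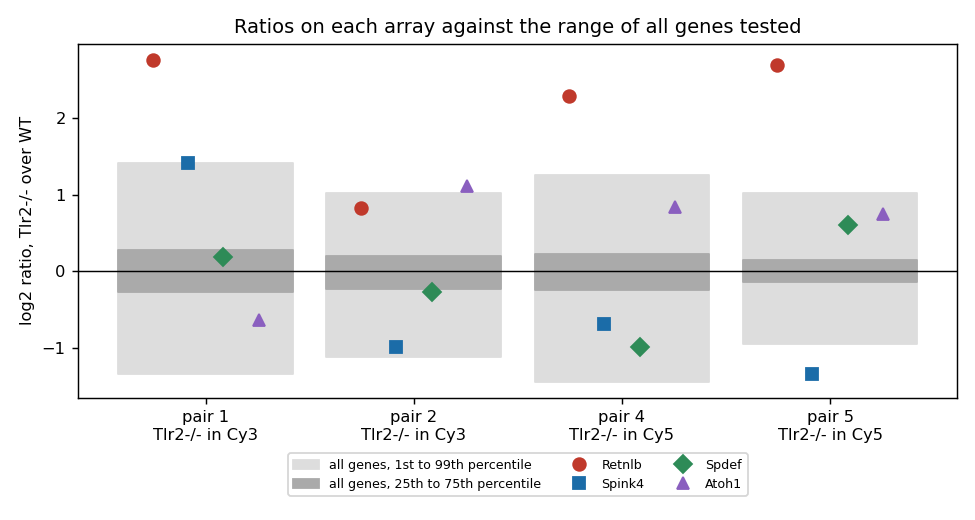
The log2 ratio of Tlr2-/- over WT (vertical axis) on each of the 4 arrays for the 4 genes without a saturated spot. Light and dark bands hold the 1st to 99th and the 25th to 75th percentile of all genes tested, and Retnlb lies above the light band on 3 arrays, while in pair 2 it stands at 0.83, below the 99th percentile of 1.02.

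Spink4 was lower in knockout mucosa in pairs 2, 4 and 5 and higher in pair 1. Its normalised log2 intensity was 15.32, 14.38, 13.37 and 13.52 in knockout samples, against 13.90, 15.37, 14.06 and 14.85 in wild-type samples of pairs 1, 2, 4 and 5. The groups overlap widely. The log2 ratios were 1.42, -0.98, -0.69 and -1.34, and their mean of -0.40 ± 1.24 (SD, n = 4 arrays) had an adjusted p of 0.848 in limma. Without pair 1 the mean was -1.003 ± 0.32 (SD, n = 3 arrays) with an adjusted p of 0.112. The value of pair 1 depended on normalisation. The spot signals before correction were 24696.5 in the knockout sample and 24746 in its wild-type partner, and with median centring the ratio was 0.38 in pair 1 and 0.01 in pair 4.

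Atoh1, the factor at the top of the lineage, had the opposite pattern over the arrays. Its normalised log2 intensity was 9.77, 11.13, 10.73 and 10.49 in knockout samples, against 10.40, 10.01, 9.90 and 9.74 in wild-type samples. Knockout exceeded wild type in pairs 2, 4 and 5, and in these pairs each knockout sample lay above all 4 wild-type samples after normalisation. The spot signals before correction did not separate in this way. The wild-type sample of pair 1 read 2122, against 2315, 2029 and 1757 in the knockout samples of pairs 2, 4 and 5. The log2 ratios were -0.63, 1.12, 0.84 and 0.75, with a mean of 0.52 ± 0.78 (SD, n = 4 arrays) and an adjusted p of 0.702 in limma. Without pair 1 the mean was 0.90 ± 0.19 (SD, n = 3 arrays), with an adjusted p of 0.112. Spink4 and Atoh1 pointed the same way on 0 of 4 arrays. With median centring the sign of the ratio of Spink4 in pair 4 turned, so that they then pointed the same way on that array.

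Spdef, the maturation factor, was higher in knockout samples in pairs 1 and 5 and lower in pairs 2 and 4. Its normalised log2 intensity was 12.53, 13.24, 11.82 and 12.89 in knockout samples, against 12.33, 13.52, 12.81 and 12.28 in wild-type samples. The log2 ratios were 0.19, -0.28, -0.98 and 0.61, and the mean of -0.11 ± 0.68 (SD, n = 4 arrays) had an adjusted p of 0.951 in limma. Its sign in pair 1 turned with median centring, to -0.84. The 95% interval in limma ran from 0.518-fold to 1.65-fold.

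Over the 4 genes measured on all arrays, the median log2 ratio was 0.20, with medians of 0.80, 0.28, 0.07 and 0.68 in pairs 1, 2, 4 and 5, and over all genes tested the median of the mean ratios was -0.008. The 4 genes did not move as a group. The root mean square difference between 2 genes' ratios over the 4 arrays was 2.09 for Retnlb and Atoh1, 2.39 for Retnlb and Spdef, and 2.75 for Retnlb and Spink4. The closest were Spink4 and Spdef at 1.21.

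For the other 5 genes the arrays gave no usable ratio, because their spots reached the scanner's ceiling of 65507. A channel was saturated on all 4 arrays for 5 of the 9 genes, against 0.993% of all genes tested. Zg16, a lectin that binds Gram-positive bacteria, was saturated in 8 of 8 channels. Tff3, the trefoil peptide of goblet cells, was saturated in 7 of 8, and the remaining channel, the knockout sample of pair 2, read 44255. Clca1, a secreted metalloprotease of the mucus, was also saturated in 7 of 8, and its wild-type sample in pair 4 read 40364.5. Fcgbp, a mucus protein with repeated von Willebrand domains, was saturated in 6 of 8 channels at 1 probe and in 5 of 8 at the other. At its brighter probe all 4 knockout samples were saturated, against 2 of 4 wild-type samples, where the other wild-type samples, both in Cy3, read 53313 and 60828.

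Agr2 was saturated in 4 of 8 channels, on each array in the one that carried Cy5. Its knockout samples read 42861 and 58127 in pairs 1 and 2, where the wild-type partner was saturated. Its wild-type samples read 59228 and 47186 in pairs 4 and 5, where the knockout partner was saturated. Over all spots that were not controls, 282 to 429 per array were saturated in Cy5, against 43 to 101 in Cy3. Saturation therefore moved with the dye in Agr2, and its part in the values of the others was not tested.

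**Figure D3:**
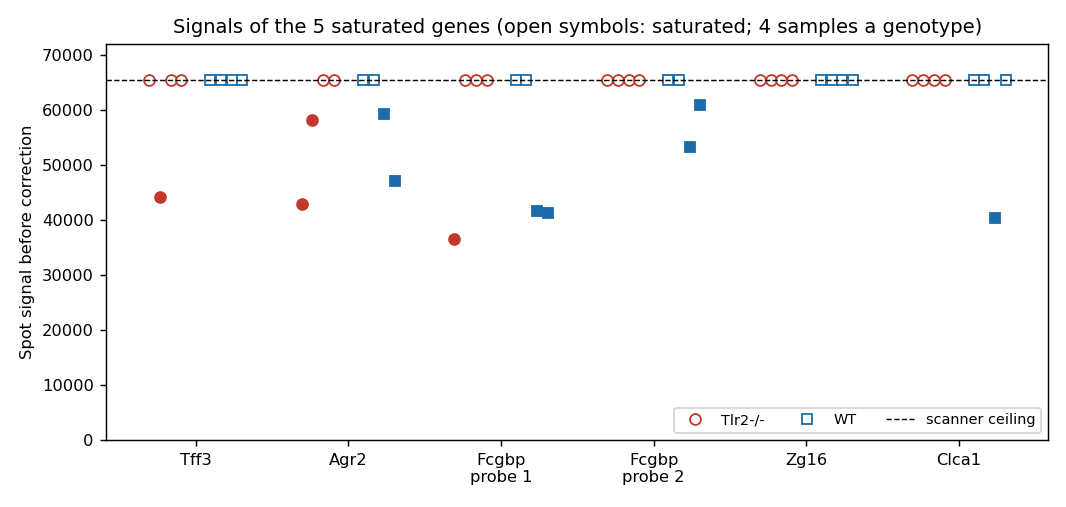
Spot signal before correction (vertical axis) of the 5 saturated genes in Tlr2-/- and WT samples, 4 of each, with open symbols for saturated spots, the dashed line at the ceiling of 65507 and the brighter of the Fcgbp probes labelled probe 2. Most symbols lie on the ceiling, and all 8 of Zg16 do.

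A spot at the ceiling in both channels carries no ratio, yet normalisation gave each such spot of an array nearly the same value. That value was 1.41, 0.47, -0.87 and -0.61 in pairs 1, 2, 4 and 5, where 41, 99, 72 and 90 spots were in this state. In pair 1 the unsaturated spot of Spink4 stood close to it, at 1.42. Zg16 had the same set of ratios to 2 decimals, and its fitted mean of 0.10 with an adjusted p of 0.919 in limma therefore describes the ceiling. The values of a saturated gene are limits at most. For Tff3 the ratio in pair 2 was at most -0.11. For Clca1 the ratio in pair 4 was at least -0.18. For Agr2 it was at most 0.80 and 0.29 in pairs 1 and 2 and at least -0.73 and -0.14 in pairs 4 and 5. At the brighter Fcgbp probe the ratio was at least -0.58 and -0.50 in pairs 4 and 5. At the other probe it was at most 0.57 in pair 1 and at least -0.23 and 0.06 in pairs 4 and 5, the last being the only limit among these 5 genes that places knockout above wild type, as the limit of Tff3 in pair 2 is the only one that places it below. These limits carry each array's normalisation.

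Among 20 further goblet cell genes, 17 were measured and 13 of them had no saturated spot. Of these 13 genes, 3 were higher on all 4 arrays and none was lower on all 4, against 7.24% and 8.53% of all genes without saturation, and the median of their mean ratios was 0.05. Without pair 1, 3 were higher and 3 lower on all 3 arrays, against 24.1% and 24.8%. Those higher on all 4 were Scin, an actin-severing protein, at 0.40 ± 0.04, Capn9, a calpain of the digestive tract, at 0.32 ± 0.14, and Bcas1 at 0.50 ± 0.32 (mean log2 ratio ± SD, n = 4 arrays), each with an adjusted p of 0.593 in limma. Ramp1, a receptor subunit for calcitonin gene-related peptide, had ratios of 0.69, -0.67, -1.13 and -0.85, so pair 1 again stood against the others, and without it the mean was -0.88 ± 0.23 (SD, n = 3 arrays). Guca2a, the precursor of guanylin and named after its values were seen, was saturated in all channels.

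Ang4, an antibacterial ribonuclease of Paneth and goblet cells, is named here after its values were seen. Its normalised log2 intensity was 15.57, 12.80, 14.71 and 14.68 in knockout samples, against 12.11, 14.50, 12.44 and 12.28 in wild-type samples. It was high in 3 knockout samples and in the wild-type sample of pair 2, the same wild-type sample in which Retnlb was highest. The log2 ratios were 3.46, -1.70, 2.27 and 2.41, with a mean of 1.61 ± 2.27 (SD, n = 4 arrays) and an adjusted p of 0.675 in limma. Without pair 1 the mean was 0.99 ± 2.33 (SD, n = 3 arrays). Itln1, an intelectin that binds microbial sugars and was also named after its values were seen, had ratios of 2.96, -1.79, 1.07 and -0.28.

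Of the resistin family, Retn was measured at 0.33 ± 0.48 and Retnla at 0.19 ± 0.20, each higher on 3 of 4 arrays and neither past the test, with adjusted p-values of 0.620 and 0.703 in limma. The trefoil and Agr relatives without saturation had negative means. Tff1 stood at -0.11 ± 0.10, Tff2 at -0.18 ± 0.46, and Agr3 at -0.36 ± 0.44. Tff1 was below 0 on all 4 arrays, but at -0.0003 in pair 1 it was practically unchanged there. Of the 14397 genes without saturation, 8.53% were lower on all 4 arrays and 6826 had a positive mean. Among the other mucins, 6 of 10 were measured and none was on 1 side on all 4 arrays among the 5 without saturation. Muc13, a membrane mucin, was the one with saturation, in 2 knockout channels and 1 wild-type channel. Its values of -0.42, 0.14, 0.62 and 0.64 are therefore not all measured ratios, and where a spot was saturated they are limits at most. The Clca relatives without saturation, 4 in number, also differed between pairs, and Clca4a ranged from -1.29 in pair 1 to 1.46 in pair 2.

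Of 32 genes listed for mucin O-glycosylation, not all of them enzymes of that pathway, 27 were measured and 26 had no saturated spot. Of these, 2 were higher and 2 lower on all 4 arrays, against 7.24% and 8.53% of all genes without saturation, and the median mean ratio was 0.04. Without pair 1, 8 were higher and 3 lower on all 3 arrays, against 24.1% and 24.8%, and the median was 0.16. By the submitters' rule 2 of the 26 were higher and 0 lower, against 0.778% and 0.702%, and both enzymes add sialic acid to galactose. Both also passed it without pair 1. St3gal4 had ratios of 0.62, 0.91, 1.12 and 0.81, with a mean of 0.87 ± 0.21 (SD, n = 4 arrays) and an adjusted p of 0.593 in limma. St3gal1, named after its values were seen, stood at 0.52 ± 0.51 with an adjusted p of 0.627 in limma. Gcnt1, which branches the core glycan, was higher on 3 of 4 arrays, at 0.60 ± 0.63, and at 0.85 ± 0.48 without pair 1.

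Of 30 genes of the secretory ER, 28 were measured, and among the 27 without saturation 2 were higher and 5 lower on all 4 arrays, against 7.24% and 8.53% of all genes without saturation. Without pair 1, 11 were higher and 7 lower on all 3 arrays, against 24.1% and 24.8%. The median mean ratio was -0.03. Creld2, an ER stress-inducible protein, had ratios of -0.63, -0.91, -0.57 and -0.55, with a mean of -0.66 ± 0.17 (SD, n = 4 arrays) and an adjusted p of 0.593 in limma. Sdf2l1 at -0.37 ± 0.22 and Sec61b, a subunit of the translocon, at -0.42 ± 0.27 were likewise lower on all 4 arrays. Dnajb9, a co-chaperone of the unfolded protein response, was higher on all 4, at 0.60 ± 0.25. None of these genes passed limma, with an adjusted p of 0.593 for each of the 4.

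**Figure D4:**
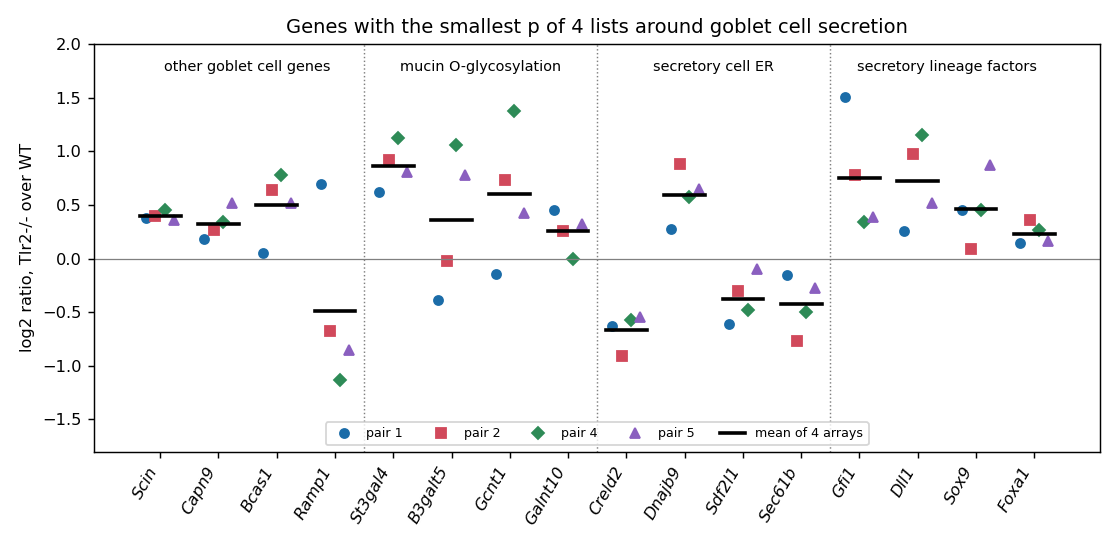
The log2 ratio of Tlr2-/- over WT (vertical axis) in each of the 4 pairs for the genes with the smallest p of 4 lists around goblet cell secretion, with black lines at the means of the 4 arrays. Creld2, Sdf2l1 and Sec61b lie below 0 and Scin, St3gal4, Dnajb9, Gfi1 and Dll1 above 0 in every pair. B3galt5 was saturated in 2 knockout channels and 1 wild-type channel, so its points are not all measured ratios.

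Of 26 genes listed for the secretory lineage, 25 were measured. Not all are particular to that lineage, as the list also holds Notch receptors, the pan-epithelial marker Elf3 and the stem cell marker Ascl2. Of the 24 without saturation, 4 were higher and 0 lower on all 4 arrays, against 7.24% and 8.53% of all genes without saturation. Without pair 1, 11 were higher and 0 lower on all 3 arrays, against 24.1% and 24.8%. Gfi1, which acts downstream of Atoh1 and keeps secretory cells from the enteroendocrine fate, had ratios of 1.50, 0.78, 0.34 and 0.39. Dll1, the Notch ligand on secretory precursors, had ratios of 0.25, 0.98, 1.15 and 0.52. Their means were 0.75 ± 0.54 and 0.73 ± 0.41 (SD, n = 4 arrays), with an adjusted p of 0.593 each in limma. Both passed the submitters' rule, which 0.778% of genes without saturation passed on this side. Without pair 1 Gfi1 no longer passed it, with a mean of 0.50 ± 0.24, while Dll1 did, with a mean of 0.88 ± 0.33 (SD, n = 3 arrays). Sox9, a factor of crypt base cells, stood at 0.46 ± 0.32, and Foxa1, which helps to activate mucin genes, at 0.23 ± 0.10. Jag1 and Hes1, of the Notch pathway and named after their values were seen, had ratios of -0.44 and -1.09 in pair 1, and of 0.97 to 1.25 and 0.52 to 0.86 in the other pairs.

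Type 2 cytokine and tuft cell genes bear on Retnlb because these cytokines induce it in mice. Of 26 such genes, 21 were measured, 1 was higher and 2 lower on all 4 arrays, against 7.24% and 8.53% of all genes without saturation, none passed limma, and the smallest adjusted p was 0.620. Without pair 1, 3 of 20 were higher and 4 lower on all 3 arrays, against 24.1% and 24.8%. Il13, named after its values were seen, had ratios of -0.27, -0.12, -0.12 and -0.06. Il4ra, the receptor subunit through which it signals, had ratios of 0.17, -0.58, -0.93 and -0.45. Alox5 and Trpm5, of tuft cells, stood at 0.47 ± 0.63 and 0.36 ± 0.46 and were lower in pair 2 alone.

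The genes closest to Retnlb were found by the root mean square difference of their log2 ratios over the 4 arrays. The closest was Wdfy1, an endosomal protein, at a difference of 0.874. It had ratios of 2.61, 2.45, 2.15 and 2.08 and an adjusted p of 0.0772 in limma. Ang2, an angiogenin ribonuclease, followed at 1.04, with ratios of 2.75, -1.04, 1.82 and 1.95. It is a close relative of Ang4, and whether its probe also reads Ang4 was not tested. Duoxa2, the maturation factor of the oxidase Duox2, also stood at 1.04, the circadian repressor Ciart at 1.05 and the interferon-induced GTPase Gbp3 at 1.07. None of the 5 closest genes was one of the 10 goblet cell genes. Besides Retnlb, only Spink4, Spdef and Atoh1 of these had measured ratios. With 5 places among 14702 genes, their absence says little.

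Markers of position and of other cells moved with the pairs. The median log2 ratio of the 8 measured Hox genes of paralog groups 10 to 13, which mark the posterior gut, was -1.48 in pair 1 and 0.50, 1.21 and 0.50 in pairs 2, 4 and 5, and that of the 21 genes of groups 1 to 9 was 0.71, -0.21, -0.33 and 0.08. Hoxd13 alone ranged from -4.76 in pair 1 to 2.15 in pair 4. Of the 8 posterior genes, 6 were higher in knockout in each of pairs 2, 4 and 5. Hoxb13 did not follow the median, at -3.03, -0.47, 1.14 and -1.04 in pairs 1, 2, 4 and 5. Hoxd12 stayed nearer 0, at -0.39, -0.06, -0.003 and 0.04. The median of 8 deep crypt secretory and Paneth cell genes, Ang4 and Itln1 among them, was 1.05, -0.69, -0.14 and -0.25. After loess, Spink4 thus shared its sign in every pair with the median of this last list. Atoh1 did so with the median of the posterior Hox genes, while Retnlb was positive in all pairs. Of all genes without saturation, 24.1% were higher and 24.8% lower in all pairs other than pair 1. On all 4 arrays the shares were 7.24% and 8.53%. Genes with pair 1 against the other pairs were therefore common, and a match of signs alone says little. Single members of the deep crypt list did not share a sign. In pairs 4 and 5 Ang4 stood at 2.27 and 2.41, where Spink4 was negative, and Mmp7 at -1.47 and -0.65. The medians of 16 immune genes lay between -0.37 and 0.08, and those of 13 stem and proliferation genes between -0.26 and 0.08. Fat cell genes were highest in pairs 4 and 5, where Adipoq had ratios of 1.40 and 2.82, against -0.45 and -0.04 in pairs 1 and 2. Cfd and Car3 were likewise highest in pairs 4 and 5. These are also the pairs with knockout in Cy5, so a difference by dye cannot be told apart from one between pairs here. Smooth muscle genes differed from each other. Acta2 stood at -2.01 in pair 1 and at 1.01, 0.86 and 0.48 in pairs 2, 4 and 5. Actg2 had the same sign as Acta2 in each pair. Tagln stood at 0.18, -0.99, -1.63 and -0.03 in pairs 1, 2, 4 and 5. Myh11 and Des were negative in pairs 1, 2 and 4 and positive in pair 5. Of 14 measured pan-epithelial markers, 10 had saturated spots. The part of tissue position and cell makeup in the values of Retnlb, Spink4, Atoh1 and Ang4 was not tested.

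**Figure D5:**
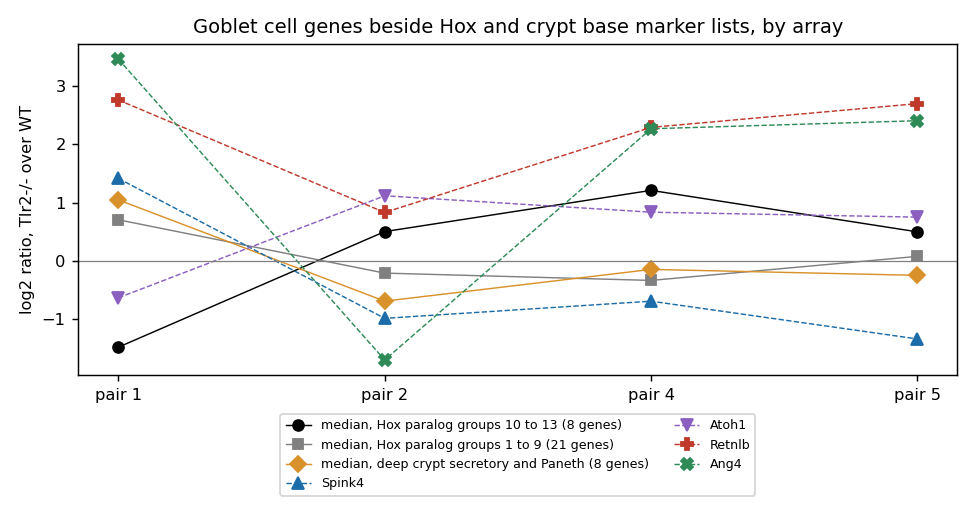
The log2 ratio of Tlr2-/- over WT (vertical axis) in each of the 4 pairs for Spink4, Atoh1, Retnlb and Ang4 beside the medians of 2 lists of Hox genes and 1 list of crypt base markers. Pair 1 and the other pairs lie on opposite sides of 0 for the median of the posterior Hox genes, for Atoh1 and for Spink4. Retnlb lies above 0 in all 4.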

How the data were processed

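Per the file headers, Agilent Feature Extraction wrote for each spot and channel the median pixel intensity, the local background and a processed intensity. The headers name version 10.5.1.1, while version 8.5.1.1 stands in the submitters' processing notes. The linear ratio of knockout over wild type that the authors deposited for their hits has a normalisation not stated in the labels or headers. Flags for saturation and for signal well above background, the other deposited values used, came with the intensities. The 2 methylation arrays were not used here.

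Median intensities were background corrected by normexp with an offset of 50 and then loess normalised within each array (limma 3.58.1, R 4.3.3). Single-channel levels were scaled with Aquantile. Control spots and spots marked as outliers were left out, and saturated spots were kept. A probe was kept if at least 2 arrays showed it well above background for 1 genotype. Of 25316 probes named by accession through RefSeq's gene table or by the authors' deposited tables, 21508 were kept, and the brightest stood for its gene. The fit (lmFit, eBayes) on log2 ratios had a dye intercept and a sign per array, with adjustment over 14702 genes. All 4 arrays lay on 1 slide. The number of arrays limits the precision. Counts of genes on 1 side in all arrays, counts by the submitters' rule and medians of lists leave out genes with a saturated spot. Counts by the rule over all genes that compare settings keep them. The procedure was tested on simulated data.

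The 10 genes and the lists were chosen with earlier results of these data known. Genes named are the 10, Tlr2, up to 4 of each list with the smallest unadjusted p, the 5 closest to Retnlb, and markers that show a list's range. Others are stated as named after their values were seen. Alternatives changed the signals, background, normalisation, filter, dye term, probe choice, saturated spots and the pairs used.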

Additional observations from a re-analysis of the deposited data

Results flagged for a closer look

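Of 65 sets of 4 array values checked, 1 held a value far from the rest. The median log2 ratio of 16 stroma, muscle and fat genes was 0.277 in pair 5, where the others lay between -0.09 and -0.04. This median covers genes that differ, as the fat cell gene Adipoq stood at 2.82 and the smooth muscle gene Acta2 at 0.48 in that pair. Chance gives such a gap in about 1 of 20 sets. Among the goblet cell genes, no set of 4 ratios held such a value, and the ratios of Retnlb were among those checked.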

How the results depend on the processing

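Under the 14 alternatives the mean log2 ratio of Retnlb kept its direction and lay between 1.94 and 2.58, its adjusted p in limma lay between 0.112 and 1.00, and it passed the submitters' rule in each. None of the 9 genes passed limma under any of them. The plain mean of the array ratios of Spink4 stayed negative (-1.003 to -0.09) and that of Atoh1 positive (0.32 to 0.90). The range of Retnlb above is likewise one of plain means. With 1 pair left out, limma tested a different value, in which both dye orientations weigh equally. Without pair 2 its interval for Spink4 centred on a positive value (-0.302 to 0.706), against a plain mean of -0.20. For Atoh1 that interval ran from -0.191 to 0.354. Without pair 1 the interval for Retnlb ran from 1.29 to 2.04. The median of the 9 genes, ceiling values included, was 0.10 and ranged from -0.20 to 0.41. With 1 pair left out, 1 to 3 of the genes passed the submitters' rule. Changes of sign of the plain mean concerned means near 0. With processed signals Agr2 came to -0.0153, and with median centring Agr2 came to -0.13 and Zg16 to -0.0859. With 1 pair left out, the means ranged from -0.19 to 0.32 for Agr2, -0.20 to 0.46 for Fcgbp, -0.33 to 0.43 for Zg16, -0.11 to 0.57 for Clca1, -0.53 to 0.23 for Tff3 and -0.36 to 0.18 for Spdef. Except for Spdef these genes were saturated, so that their changes describe the ceiling. The alternatives without saturated spots leave 4 of the 9 genes. Over all genes, saturated ones included, processed signals gave 271 higher and 279 lower genes by the submitters' rule, and leaving out pair 1 gave 387 and 494. limma called 4 genes with processed signals, 3 with no dye term, and 1 each with an offset of 10, median centring and the strict filter. These counts over all genes, and those of the lists without pair 1, were added after seeing the data. Each array's ratio is already a difference within a pair, so the fit is paired as it stands. Between the expression and methylation arrays, which share pair numbers, no paired analysis was possible because they were not compared. Saturation limits the 5 genes at the ceiling.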
